A study of Mus musculus with 4 samples.

Results

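The mitochondrial ribosomal protein genes were followed in RNA sequencing of cultured mouse neural progenitors taken at 2 embryonic stages. Members were the entries whose listed symbol is *Mrpl* or *Mrps*, a number and at most 1 letter a, b or c. This naming rule took in 74 of 21091 entries, 46 *Mrpl* and 28 *Mrps*, and used no measured value. Of these, 3 *Mrps* symbols name proteins that sit outside the small subunit. *Mrps18a* and *Mrps30* encode proteins of the large subunit, and *Mrps36* encodes a component of the alpha-ketoglutarate dehydrogenase complex. They were kept under their symbol.

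Each of the 4 groups held 1 library. Progenitors came from C57BL/6 embryos at embryonic day 11 (E11) or 14 (E14) and were grown for 3 days as floating spheres in serum-free medium with EGF and FGF, and the material was total cell RNA. At each stage there was a control (CTL, labelled WT) and a *Stat3* conditional knockout (cKO), in which Cre driven by the Nestin promoter was to remove floxed *Stat3*, the gene of a cytokine-activated transcription factor. The labels and the sequencing methods call the control wild type, whereas the animal methods describe Nestin-Cre embryos heterozygous for floxed *Stat3*. If the controls carried no Cre, the genotype ratio would also be a ratio of Cre to no Cre. With no replicate there was no test between groups, and each value below is a level or a plain ratio whose replicate error is unknown.

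Mitochondrial ribosomes translate the few proteins encoded by mitochondrial DNA, all of them core subunits of the respiratory chain complexes and ATP synthase. Their RNA comes from mitochondrial DNA, whereas every protein of the large and the small subunit is encoded in the nucleus, made in the cytosol and imported. Compared with the bacterial ribosome, the mitochondrial one has lost much of its RNA and gained proteins that bacteria lack, so its protein genes divide into those with a bacterial counterpart and those specific to mitochondria.

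*Stat3* itself was at 7.41 FPKM (fragments scaled to transcript length and to the mapped fragments of the library) in E11 CTL, 6.74 in E11 cKO, 27.6 in E14 CTL and 9.55 in E14 cKO. The cKO to CTL ratio was thus 0.911 at E11 and 0.346 at E14. The library labelled E11 cKO showed no clear loss of *Stat3*, so E11 cKO is used below as a label, and its ratios cannot be read as those of cells without *Stat3*. Only some exons are floxed, and a whole-gene FPKM can still count transcripts that lack them. The number of fragments behind the values is unknown. Neural progenitor markers (9 of 9 listed) summed to 1550, 1719, 7477 and 8127 FPKM in the order E11 CTL, E11 cKO, E14 CTL and E14 cKO. *Fabp7* alone gave 5245 and 5929 of the E14 sums, while *Pax6*, *Msi1* and *Sox1* were lower in E14 CTL than in E11 CTL. Both E11 libraries also held mesenchymal marker transcripts (5 of 5 genes), which summed to 511 and 506 FPKM against 5.15 and 4.42 at E14. Astrocyte markers (4) summed to 10.6, 8.60, 84.6 and 148.5 FPKM and oligodendrocyte markers (4) to 6.95, 7.42, 14.4 and 39.3, both highest in E14 cKO. *Aldh1l1* made up most of the astrocyte sum (136 FPKM in E14 cKO), while *Gfap* (0.901 and 0.186 in E14 CTL and cKO) and *Mog* (0.996 and 0.930) were lower in E14 cKO. Neuron markers (6) summed to 675, 708, 998 and 852 FPKM. All 6 were lower in cKO than in CTL at E14 (median log2 ratio -0.32), against 60.1% of genes. After scaling the libraries to their upper quartiles 5 of the 6 were. Summed microglia markers (5) ranged from 0.192 to 2.14 FPKM and endothelial markers (4) from 0.973 to 4.58. One of the 5 microglia markers was listed at 0 in E14 CTL, and only 1 of 5 erythroid markers is listed, at 0.135 FPKM or less. The Y-linked *Ddx3y* was at 0, 0, 0.0569 and 25.1 FPKM and *Xist* at 46.9, 39.7, 13.6 and 0.0370. At E14 embryonic sex and genotype therefore go together and cannot be told apart. The same holds for sex and stage within cKO, since E11 cKO had *Xist* and no *Ddx3y*. No *Mrpl* or *Mrps* member lies on the X or Y chromosome. The members sit on 17 chromosomes, with 10 on chromosome 11 and 8 on chromosome 17.

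Every member was detected in every library, and all 74 passed the minimum mean of 1 FPKM that 12449 entries met. FPKM is a level per transcript length, so levels of different genes can be compared within a library. Median *Mrpl* levels were 27.5 FPKM in E11 CTL, 27.6 in E11 cKO, 44.3 in E14 CTL and 39.8 in E14 cKO. *Mrps* genes had medians of 26.0, 28.9, 48.9 and 37.8 FPKM in the same order. All analysed genes had medians between 11.2 and 12.1 FPKM. The highest *Mrpl* sum (3124 FPKM) and the highest *Mrps* sum (1664 FPKM) were both in E14 CTL, the sums of *Mrpl* being 1558, 1646 and 2614 and those of *Mrps* 814, 896 and 1378 in E11 CTL, E11 cKO and E14 cKO. Summed *Mrps* levels stood at 0.522, 0.544, 0.533 and 0.527 of the summed *Mrpl* levels, a narrow span, whereas the ratio of *Mrps* to *Mrpl* medians was 0.943, 1.05, 1.104 and 0.952. The *Mrps* values include the 3 genes outside the small subunit. Together the 74 genes took 0.250%, 0.315%, 0.343% and 0.273% of each library's FPKM sum. The 10 highest entries alone made up 43.4%, 36.0%, 44.5% and 49.9% of these sums, so the shares depend on a few entries. The share was lower in E14 cKO than in E11 cKO although 70 of 74 members had the higher level in E14 cKO.

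Within a library, the members spanned a wide range of levels. *Mrpl52*, a mitochondria-specific protein of the large subunit, was the highest *Mrpl* gene throughout, at 131, 113, 238 and 196 FPKM. *Mrpl33* was at 75.8, 77.9, 207 and 181 FPKM and *Mrpl20*, which has a bacterial counterpart that binds large-subunit RNA, at 72.0, 86.6, 193 and 133. At the other end, *Mrpl17* was at 5.42, 5.13, 10.5 and 7.27 FPKM and *Mrpl19* at 6.19, 6.81, 9.50 and 7.34. Both lay below every other *Mrpl* gene in every library. Among *Mrps* genes, in the order of their mean, *Mrps21* led with 87.8, 103, 203 and 201 FPKM, followed by *Mrps18c* with 65.7, 72.7, 136 and 104 and *Mrps33* with 50.6, 60.0, 118 and 105. *Mrps27* (6.27, 8.05, 15.4 and 8.86 FPKM) and *Mrps2* (10.7, 10.5, 10.8 and 9.58 FPKM) had the lowest means. Spearman's rho between the levels in E14 CTL and E14 cKO was 0.956 over 46 *Mrpl* genes and 0.988 over 28 *Mrps* genes, points that share transcript lengths and annotation. Between E11 CTL and E14 CTL it was 0.914 and 0.827, and between E11 cKO and E14 cKO 0.960 and 0.848.

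**Figure D1:**
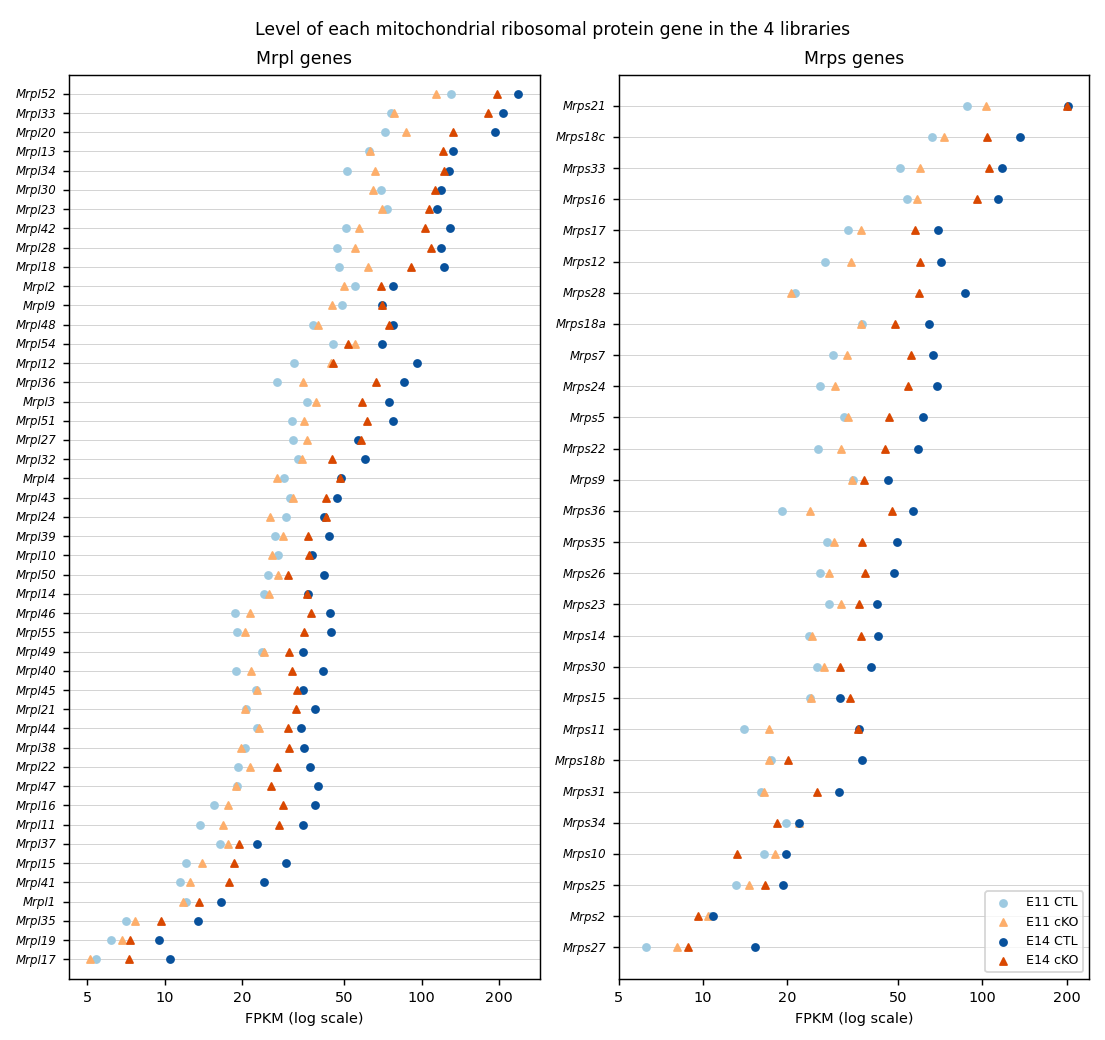
Level of each *Mrpl* (left) and *Mrps* (right) gene in FPKM on a log axis, with genes in the order of their mean and 1 point per library (circles CTL, triangles cKO, pale E11, dark E14). The dark circle of E14 CTL is the rightmost point for 70 of 74 genes.

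The first comparison asked how the genes differ between E11 and E14 progenitors of one genotype. In CTL all 46 *Mrpl* and all 28 *Mrps* genes were higher at E14 than at E11, against 60.5% of 12430 genes with a ratio and 78.9% of those averaging 20 FPKM or more. After upper-quartile scaling of the libraries 24 of the 28 *Mrps* and all 46 *Mrpl* genes stayed on that side. The median log2 ratio was 0.92 for *Mrpl* (lowest 0.44, highest 1.65) and 0.99 for *Mrps* (lowest 0.02, highest 2.02). For all analysed genes the median was 0.21, and for those averaging 20 FPKM or more it was 0.49. At least 2-fold higher levels were found for 20 of 46 *Mrpl* and 14 of 28 *Mrps* genes, against 14.6% of genes. Upper-quartile scaling, which divides out the higher upper quartile of E14 CTL (1.15 times the mean over libraries, against 0.888 in E11 CTL), left 4 *Mrpl* and 4 *Mrps* genes at that fold. Relative to the median of all genes the list medians were 0.70 and 0.78. After upper-quartile scaling they were 0.55 and 0.62, beside -0.16 for all analysed genes. Mesenchymal markers, far lower at E14 than at E11, differed between the same libraries, and their part in these ratios was not tested. In bulk RNA, fewer cells of a type and less RNA per cell cannot be told apart.

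In *Stat3* cKO progenitors the same step was smaller. It also went from a library with *Xist* and no *Ddx3y* to one with *Ddx3y* and almost no *Xist*. In cKO, embryonic sex and stage therefore cannot be told apart, which limits every cKO stage ratio below. Within cKO, 45 of 46 *Mrpl* and 25 of 28 *Mrps* genes were higher at E14 (53.3% of genes were). Of these, 41 and 23 stayed so under every scaling tried. Median log2 ratios were 0.58 for *Mrpl* and 0.50 for *Mrps*, beside 0.058 for all analysed genes and 0.24 for those averaging 20 FPKM or more, of which 67.2% were higher. One *Mrpl* gene, *Mrpl33*, and 2 *Mrps* genes, *Mrps28* and *Mrps11*, reached 2-fold, against 10.1% of genes. The E14 to E11 ratio was smaller in cKO than in CTL for 41 of 46 *Mrpl* and 27 of 28 *Mrps* genes, as it was for 62.1% of genes. After upper-quartile scaling it was smaller for 29 and 26, and the share of all genes was not taken there. The median difference of the 2 log2 ratios was -0.39 for *Mrpl*, -0.43 for *Mrps* and -0.12 for all genes. Upper-quartile scaling brought the first 2 to -0.17 and -0.21. It moves this difference by the same amount in every gene, so the gap between members and all genes stayed as it was. Among genes averaging 20 FPKM or more the median difference as deposited was -0.24, and 75.7% had the smaller ratio in cKO.

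A threshold of 2-fold placed 19 *Mrpl* and 12 *Mrps* genes in the class that reached it in CTL and not in cKO, together 31 of 74 members against 7.15% of all genes. Once libraries were centred on the all-gene median this class held 18 members, against 3.82% of all genes, and after upper-quartile scaling 6, against 2.41%. The 3 genes named above reached it in both genotypes and no member reached it in cKO alone. Of the 31 genes in the deposited values, 21 were still at least 1.5-fold higher at E14 in cKO, so for most of the class the genotypes differed in degree. Across members the CTL and cKO ratios, which share no library, had a Spearman's rho of 0.49 over 46 *Mrpl* and 0.82 over 28 *Mrps* genes.

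**Figure D2:**
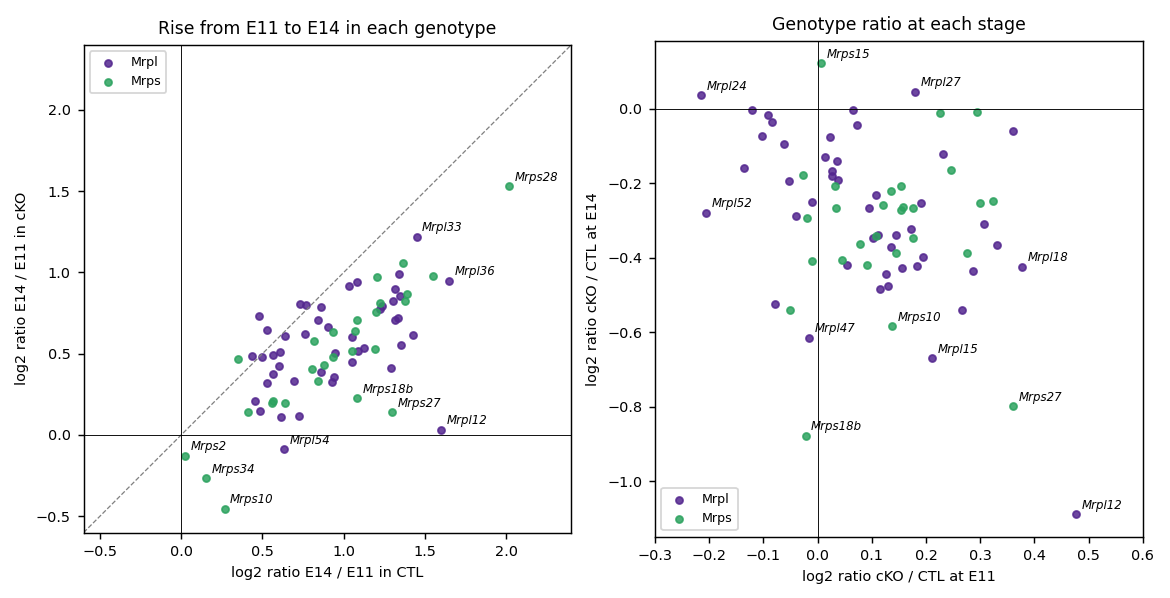
Left, log2 ratio E14 to E11 in CTL (x axis) and in cKO (y axis) for each member, with the dashed line marking equal ratios. Right, log2 ratio cKO to CTL at E11 (x axis) and at E14 (y axis). Each point is 1 gene (purple *Mrpl*, green *Mrps*), and 68 of 74 points on the left lie below the dashed line (55 after upper-quartile scaling), while *Mrpl12* lies at the lower right on the right.

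The largest E14 to E11 ratio of any member belonged to *Mrps28*, related to a bacterial protein that holds messenger RNA on the small subunit. It was at 21.3 and 20.6 FPKM in E11 CTL and cKO and at 86.5 and 59.4 in E14 CTL and cKO. Its level at E14 was thus 4.05 times that at E11 in CTL and 2.89 times in cKO. *Mrpl36*, a very small zinc-binding protein of the large subunit, was at 27.4, 34.5, 85.7 and 66.5 FPKM, with ratios of 3.13 in CTL and 1.93 in cKO. *Mrps36*, the dehydrogenase component, was at 19.2, 24.1, 56.3 and 47.4 FPKM (2.93 and 1.97) and *Mrps24* at 26.3, 29.6, 68.8 and 54.1 (2.62 and 1.82). *Mrpl28* was at 47.0, 55.1, 119 and 109 FPKM, a ratio of 2.53 in CTL and 1.98 in cKO. In each of these genes both E14 libraries lay above both E11 libraries, as they did for 70 of the 74 members and 45.7% of all analysed genes.

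The members with the lowest E14 to E11 ratios included 3 *Mrps* genes. *Mrps2* stayed between 9.58 and 10.8 FPKM in all 4 libraries. *Mrps34*, a mitochondria-specific small-subunit protein, was at 19.8, 22.1, 22.1 and 18.4 FPKM. *Mrps10*, a protein of the head of the small subunit, was at 16.5, 18.2, 19.9 and 13.3 FPKM, so that E14 cKO was the lowest of its libraries. The log2 ratios E14 to E11 of these genes in cKO were -0.13, -0.26 and -0.45, and their small positive ratios in CTL (0.02, 0.16 and 0.27) turned negative under upper-quartile scaling. *Mrps15* was the remaining member whose CTL ratio (0.35) turned negative under that scaling (-0.02). Of the *Mrpl* genes, *Mrpl54* alone was lower at E14 than at E11 in cKO as deposited, with 45.2, 55.2, 70.2 and 51.9 FPKM. The lowest *Mrpl* ratios in CTL were those of *Mrpl10* (27.7, 26.1, 37.5 and 36.6 FPKM), *Mrpl1* (12.1, 11.8, 16.6 and 13.6) and *Mrpl24* (29.8, 25.6, 41.5 and 42.6), each still at least 1.35 times its E11 level.

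The second comparison asked how *Stat3* cKO progenitors differ from CTL at one stage. At E14, 44 of 46 *Mrpl* and 27 of 28 *Mrps* genes were lower in cKO than in CTL, against 60.1% of genes and 71.9% of those averaging 20 FPKM or more. After upper-quartile scaling 32 and 25 were. Median log2 ratios were -0.27 for *Mrpl* and -0.27 for *Mrps*, -0.079 for all analysed genes and -0.15 for genes of at least 20 FPKM. Upper-quartile scaling made them -0.12 for *Mrpl*, -0.12 for *Mrps* and 0.074 for all analysed genes, most of which were then higher in cKO. Most of these differences were small. Only 3 *Mrpl* genes (*Mrpl12*, *Mrpl15* and *Mrpl47*) and 2 *Mrps* genes (*Mrps18b* and *Mrps27*) were at least 1.5-fold lower, which is 5 of 74 members beside 7.67% of all genes, a share near the background. Within 10% of the CTL level were 14 *Mrpl* and 3 *Mrps* genes, as were 34.6% of genes.

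*Mrpl12* stood apart from the other members. Its protein is the mitochondrial counterpart of the bacterial stalk protein that brings translation factors to the ribosome. The gene was at 31.9 FPKM in E11 CTL, 44.3 in E11 cKO, 96.4 in E14 CTL and 45.4 in E14 cKO. E14 CTL was thus the high library, and the other 3 lay within 1.5-fold of each other. The level at E14 relative to E11 was 3.03 in CTL and 1.02 in cKO, and the cKO to CTL ratio was 0.471 at E14 and 1.39 at E11. Its log2 ratio cKO to CTL at E14 was -1.09 as deposited and -0.93 after upper-quartile scaling. The other stalk proteins were nearer to the CTL level at E14. *Mrpl11*, at the base of the stalk, was at 13.7, 16.9, 34.5 and 27.9 FPKM, and *Mrpl10*, which anchors *Mrpl12* protein, had a log2 ratio of -0.04. Because *Mrpl12* had the lowest cKO ratio of all members, the 250 bases before its start are shown in full, from RefSeq on GRCm38.p6 at chr11:120484387-120484636, plus strand, all in lower case because none of the short motifs described at the end is in them.
Mrpl12: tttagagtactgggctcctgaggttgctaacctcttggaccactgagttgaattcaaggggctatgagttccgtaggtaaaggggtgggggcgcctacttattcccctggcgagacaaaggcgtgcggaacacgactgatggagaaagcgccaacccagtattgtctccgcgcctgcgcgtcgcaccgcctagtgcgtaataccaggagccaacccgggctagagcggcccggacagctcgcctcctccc

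The next lowest ratios at E14 were found in both subunits. *Mrps18b*, 1 of 3 paralogues related to a single bacterial small-subunit protein, was at 17.5, 17.2, 37.0 and 20.2 FPKM, a cKO ratio of 0.545 at E14 and 0.985 at E11. *Mrps27*, a mitochondria-specific protein with RNA-binding repeats, was at 6.27, 8.05, 15.4 and 8.86 FPKM, a ratio of 0.575 at E14 and 1.28 at E11. *Mrpl15* was at 12.1, 14.0, 29.6 and 18.6 FPKM (0.629 at E14), and *Mrpl47*, which lies at the exit of the nascent peptide tunnel, at 19.1, 18.9, 39.6 and 25.9 (0.653). In all of these, as in *Mrpl12*, E14 CTL was at least 1.5 times every other library. *Mrps10* followed with a ratio of 0.668. Its profile differed, since E14 cKO lay below both E11 libraries.

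**Figure D3:**
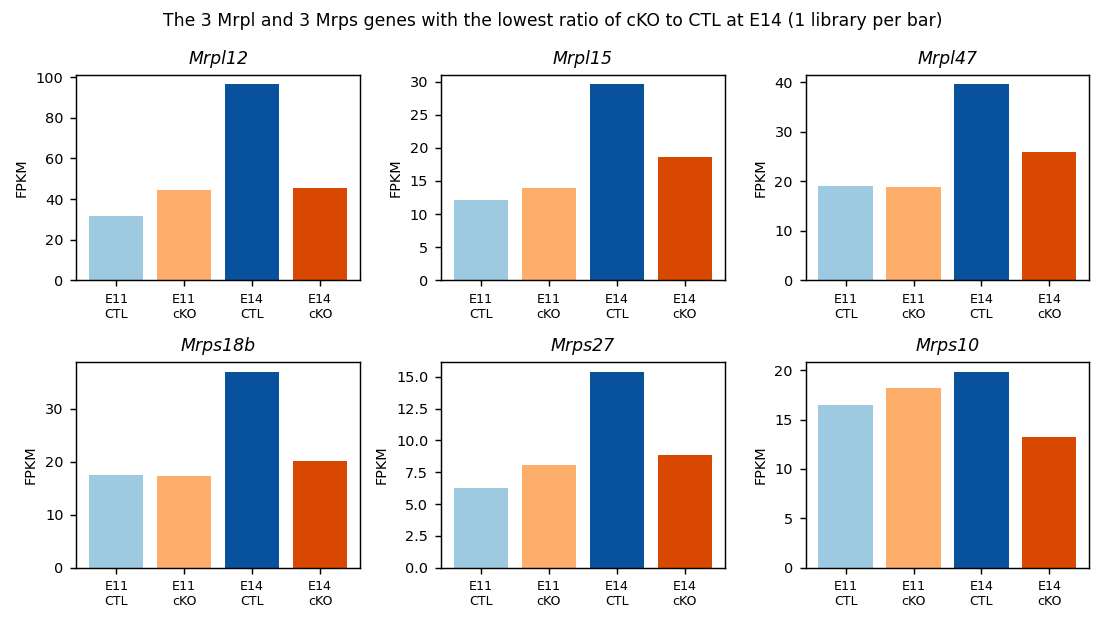
FPKM of the 3 *Mrpl* and 3 *Mrps* genes with the lowest cKO to CTL ratio at E14, each bar being 1 library and each panel having its own axis from 0. E14 CTL is the tallest bar in every panel, and *Mrps10* alone has E14 cKO as its lowest.

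A few members were level between genotypes at E14. *Mrps21* was at 203 FPKM in CTL and 201 in cKO, *Mrps11* at 36.1 and 35.9, and *Mrpl9* at 70.3 in both. The 3 members above 1 at E14 in the deposited values were *Mrpl27* (56.5 and 58.4 FPKM), a protein near the peptidyl transferase centre, *Mrpl24* (41.5 and 42.6) and *Mrps15* (30.9 and 33.6). None of them exceeded CTL by more than 1.09 times.

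Proliferation genes differed between the same E14 libraries. The 14 genes of a fixed proliferation list summed to 754, 1027, 1788 and 1266 FPKM. At E14, 12 of 14 were lower in cKO, against 60.1% of genes, with a median log2 ratio of -0.55. After upper-quartile scaling 10 of 14 were lower and the median was -0.40. At E11 all 14 were higher in cKO (median 0.45), against 61.8% of genes. Their part in the ratios of the *Mrpl* and *Mrps* genes, and that of the neuron, astrocyte and oligodendrocyte markers, was not tested.

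At E11 the genotype ratios were smaller and mostly on the other side of 1. In cKO 33 of 46 *Mrpl* and 23 of 28 *Mrps* genes were higher than in CTL, against 61.8% of genes, and 25 and 19 stayed higher after upper-quartile scaling. Median log2 ratios were 0.098 and 0.14, beside 0.059 for all genes, and upper-quartile scaling lowered them to 0.030 and 0.067, beside -0.010 for all genes. Genes averaging 20 FPKM or more had a median of 0.095 and were higher in 70.9%, so the *Mrpl* genes were level with genes of that expression. No *Mrpl* and no *Mrps* gene was 1.5-fold higher, and 2.18% of genes were. *Mrpl12* had the highest ratio of all members, followed by *Mrpl18* (47.7 against 61.9 FPKM), a central protuberance protein, and *Mrpl34* (51.2 against 65.7). The highest *Mrps* ratios were those of *Mrps27*, *Mrps36* and *Mrps12*, a protein of the decoding centre (27.4 against 33.7 FPKM). *Mrpl24*, *Mrpl52* and *Mrpl2* (54.8 against 49.9 FPKM) had the lowest *Mrpl* ratios, and *Mrps28* (0.965), *Mrps2* (0.982) and *Mrps18b* (0.985) the lowest *Mrps* ratios.

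Lower at E14 and higher at E11 in cKO were 32 *Mrpl* and 22 *Mrps* genes, as were 38.7% of all genes, and after upper-quartile scaling 21 and 17 were. Across *Mrpl* genes the 2 genotype ratios, which share no library, went in opposite orders, with a Spearman's rho of -0.48 over 46 genes. Across 28 *Mrps* genes rho was 0.21. These are descriptions, since the genes of a library share its depth and base composition.

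**Figure D4:**
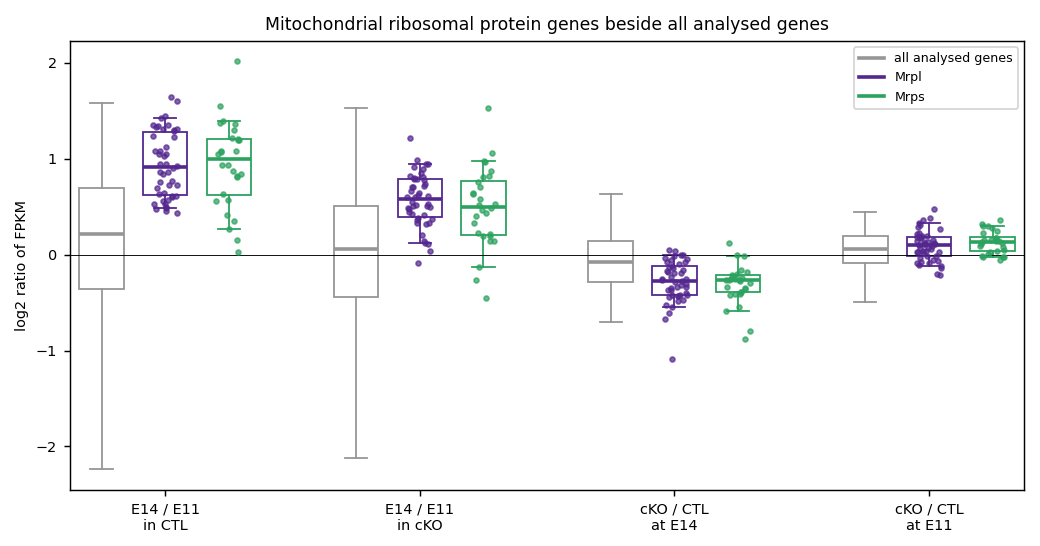
Log2 ratio of FPKM for all analysed genes (grey), *Mrpl* genes (purple) and *Mrps* genes (green) in the 4 comparisons. Boxes span the quartiles with the median as a line, whiskers run from percentile 5 to 95, and points are single members. The *Mrpl* and *Mrps* medians lie above that of all genes for both stage ratios (0.92 and 0.99 beside 0.21 in CTL). They lie below it for the E14 genotype ratio (-0.27 beside -0.079, and -0.12 beside 0.074 after upper-quartile scaling).

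The position of a protein in the ribosome was set beside its ratio, as a description. Large-subunit genes with a bacterial counterpart (30) had a median log2 ratio of 0.95 between stages in CTL, 0.61 in cKO and -0.30 between genotypes at E14. Of these, 28 were below 1 at E14 (19 after upper-quartile scaling). For the 16 mitochondria-specific ones the medians were 0.74, 0.51 and -0.26, and all 16 were below 1 at E14 (13 after upper-quartile scaling). Of all genes 60.1% were below 1 as deposited, and most were above 1 after that scaling (median 0.074). In the small subunit the 15 genes with a bacterial counterpart had medians of 1.07, 0.64 and -0.27, with 14 below 1 at E14 (12 after upper-quartile scaling). The 10 mitochondria-specific genes had 0.91, 0.28 and -0.30, with all 10 below 1 as deposited and after upper-quartile scaling. *Mrps18b* was listed among these 10, although its family is related to a bacterial protein. After that scaling the E14 medians of these groups, in the order given, were -0.14, -0.11, -0.11 and -0.15. The 8 genes of the central protuberance, where the large subunit faces the small one, had medians of 1.08, 0.74 and -0.27. For 8 genes around the exit of the peptide tunnel they were 0.67, 0.48 and -0.22, and for 8 genes of the small-subunit head 0.89, 0.61 and -0.28. All these groups lay on the same side of 0 in each comparison, and their E14 genotype medians covered a narrow span.

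The 3 paralogues *Mrps18a*, *Mrps18b* and *Mrps18c* descend from one bacterial gene and occupy different places in the ribosome. *Mrps18a* was at 37.0, 36.7, 64.6 and 48.7 FPKM, and *Mrps18c* was the highest of the 3 in every library. Their log2 ratios at E14 were -0.41 (*Mrps18a*), -0.88 (*Mrps18b*) and -0.39 (*Mrps18c*), so *Mrps18a* and *Mrps18c* were close and *Mrps18b* was lower. At E11 the 3 ratios were -0.01, -0.02 and 0.14. *Mrps30*, the other large-subunit protein with an *Mrps* symbol, was at 25.7, 27.1, 39.9 and 31.0 FPKM.

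A pair of entries join a mitochondrial ribosomal protein symbol to that of a neighbour and fell outside the naming rule. The entry of *Mrps6* with *Slc5a3* was at 33.1, 38.3, 76.6 and 46.2 FPKM and that of *Mrpl53* with *Ccdc142* at 44.2, 55.5, 97.8 and 77.3. Both had their highest level in E14 CTL, but reads of the joined genes cannot be separated. For 7 members (*Mrpl19*, *Mrpl24*, *Mrpl41*, *Mrpl48*, *Mrpl49*, *Mrps25* and *Mrps27*) the listed span overlaps that of another entry, and their values are uncertain to that extent, since the use of strand is not stated. *Mrps27* shares its span with *6430562O15Rik*, which was at 0.397, 0.234, 1.57 and 0.608 FPKM. *Mrpl48* shares its span with *Rab6a*, which was above it in every library, at 57.7, 58.7, 99.3 and 90.5 FPKM. The 67 members without such an overlap had a median log2 ratio of 0.93 between stages in CTL and -0.27 between genotypes at E14. For the 7 with an overlap the medians were 0.62 and -0.21.

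Genes that work with the mitochondrial ribosome were described from lists written by symbol, and for the counts below 1 at E14 the share over all genes was again 60.1% as deposited. No such share was taken after upper-quartile scaling, where the all-gene median at E14 was 0.074, so most genes then lay above 1. Mitochondrial ribosomal proteins under other names (7 of 7 analysed) had medians of 1.15 between stages in CTL, 0.75 in cKO and -0.32 between genotypes at E14, with 6 of 7 below 1 (5 after upper-quartile scaling). *Ptcd3*, a small-subunit protein, was at 27.9, 30.5, 51.7 and 35.5 FPKM, and *Aurkaip1*, the exception, at 43.0, 38.6, 54.5 and 57.6. *Dap3*, a small-subunit protein that binds GTP, was at 13.5, 13.7, 32.2 and 31.8 FPKM, nearly level between genotypes. Assembly factors (20) had smaller medians of 0.46, 0.25 and -0.094, with 16 of 20 below 1 at E14, the last median being near that of all genes (-0.079). Upper-quartile scaling left 8 of the 20 below 1 and turned this median to 0.059, still near that of all genes (0.074). *Fastkd2*, which acts on large-subunit RNA, was at 7.36, 8.24, 16.0 and 8.92 FPKM, an order like that of *Mrpl12*, and *Ftsj2*, a methyltransferase of that RNA, at 5.22, 6.32, 6.68 and 8.41, the highest genotype ratio in the list. For 16 mitochondrial translation factors the medians were 0.60, 0.33 and -0.18, and 14 of 16 were below 1 (11 after upper-quartile scaling, with a median of -0.028). The elongation factor gene *Tsfm* (17.4, 18.2, 41.5 and 28.4 FPKM) was lowest by genotype ratio and the membrane insertase gene *Oxa1l* (23.5, 20.5, 18.3 and 20.8) highest. For 5 mitochondrial transcription genes the medians were 0.53, 0.42 and -0.14, and all 5 were below 1, but after upper-quartile scaling 2 of 5 were and the last median was 0.0088. *Tfam*, which packages mitochondrial DNA, was at 18.8, 19.0, 27.2 and 19.9 FPKM, and *Polrmt*, the mitochondrial RNA polymerase, was the nearest to 1 with 7.84 in CTL and 7.73 in cKO at E14.

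For comparison, cytosolic ribosomal protein genes (76) had median log2 ratios of 0.36 between stages in CTL, 0.34 in cKO, -0.15 between genotypes at E14 and -0.11 at E11. Complex I subunit genes (37) had 1.01, 0.85, -0.095 and 0.054, and proteasome subunit genes (35) had 0.77, 0.37, -0.33 and 0.15. After upper-quartile scaling the E14 genotype medians were 0.00098, 0.058 and -0.17 in this order, so the first 2 changed sign, as did that of all analysed genes (0.074). The CTL stage median of cytosolic ribosomal protein genes became -0.0052 and the E11 median of complex I genes -0.015. The mitochondrial ribosomal protein genes thus lay nearer to complex I in their CTL stage ratio and nearer to the proteasome in their E14 genotype ratio, differences for which there is no test with 1 library a group.

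The promoter windows of the members were searched for short motifs, since the knockout targets a DNA-binding factor. Windows ran from 250 bases before to 50 after each start, in the RefSeq table of GRCm38.p6. For 65 of 74 members there were 71 windows, and no window was used for *Mrpl13*, *Mrpl15*, *Mrpl19*, *Mrpl38*, *Mrpl4*, *Mrpl54*, *Mrps28*, *Mrps34* and *Mrps35*. The STAT letters TTCNNNGAA, searched on both strands, were in 6 of 71 member windows (8.45%), in 6.61% of 11791 windows of analysed genes and in 8.30% of all 32851 windows. The stricter TTCCNGGAA, a subset of the same letters, was in 2 (2.82%, against 1.20% and 1.15%). The matches are shown with their flanks because they are the places where members carry letters of the STAT family, in capitals and on the gene's strand.
Mrpl30, chr1:37890356-37890384, plus strand: cccactgcgcTTCCAGGAAgcgcacgcgt
Mrpl30, chr1:37890446-37890474, plus strand: aaaaaaacctTTCCCGGAAccaaagaacc
Mrpl34, chr8:71464910-71464938, plus strand: agaactacatTTCCCAGAAggcattgtca
Mrpl42, chr10:95502170-95502198, minus strand: aatgttaataTTCTCTGAAtaatagtata
Mrpl50, chr4:49521225-49521253, minus strand: acccggagccTTCGCGGAAccgctccaac
Mrpl50, chr4:49521140-49521168, minus strand: cgaactacatTTCCCGGAAtgcataggtc
Mrps22, chr9:98601703-98601731, minus strand: cagactacatTTCCCAGAAtgctgcacaa
Mrps25, chr6:92184126-92184154, minus strand: gataattggtTTCTGTGAAgacaaaaacg

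In 3 of these 8 matches (*Mrpl34*, *Mrps22* and 1 of the 2 in *Mrpl50*) the capitals follow the same flank, actacat. *Mrpl30* was nearly level between genotypes at E14 (119 and 113 FPKM), whereas *Mrpl50* was at 41.8 and 30.1. The 6 genes with the STAT letters had a median log2 ratio cKO to CTL at E14 of -0.26 and the 59 without them -0.27. Matches are letters and not bound sites, and their absence says only that the letters are not in this window.

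NRF1, ETS and YY1 letters were more frequent in member windows than in those of analysed genes. NRF1 and ETS factors are known regulators of nuclear genes for mitochondrial proteins, and YY1 binds near the start of many housekeeping genes. The NRF1 letters GCGCATGCG were in 7 of 71 windows (9.86% against 3.64%), of which 6 belong to *Mrpl* (13.3%) and 1 to *Mrps* (3.85%), the ETS letters CCGGAAGT in 12 (16.9% against 7.72%) and the YY1 letters AAGATGGCG in 8 (11.3% against 2.97%). The E-box CACGTG was in 9.86% of windows against 9.79%, but counted by gene, since some genes have several windows, in 5 of 65 members (7.69%) against 11.8%. Each was searched on both strands, and 1 window can hold several. The YY1 matches, the motif with the largest such ratio, are shown because 6 of 8 lie within the 50 bases after the start. CGCCATCTT is the same motif read on the other strand.
Mrpl35, chr6:71823743-71823771, minus strand: ggcaggctgcAAGATGGCGgcttccatct
Mrpl36, chr13:73330968-73330996, plus strand: cgtgaccttaCGCCATCTTtcttcctggc
Mrpl37, chr4:107066822-107066850, minus strand: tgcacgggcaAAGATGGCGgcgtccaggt
Mrpl42, chr10:95501904-95501932, minus strand: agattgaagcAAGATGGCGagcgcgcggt
Mrps11, chr7:78783013-78783041, plus strand: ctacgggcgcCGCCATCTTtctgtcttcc
Mrps18a, chr17:46111005-46111033, plus strand: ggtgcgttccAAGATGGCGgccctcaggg
Mrps24, chr11:5707652-5707675, minus strand: gcgccggcccAAGATGGCGtggtc
Mrps27, chr13:99344790-99344818, plus strand: ggtgcgctccAAGATGGCGgctcccatgg

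The 8 genes with the YY1 letters had a median log2 ratio of 1.32 between stages in CTL and -0.36 between genotypes at E14, beside 0.93 and -0.26 for the 57 without them. With and without the NRF1 letters (7 and 58 genes) the genotype medians were -0.42 and -0.27, and the stage medians 0.86 and 1.04. For ETS (12 and 53) the genotype medians were -0.34 and -0.26 and the stage medians 1.05 and 0.93, and for the E-box (5 and 60) they were -0.37 and -0.27, and 1.05 and 0.94.

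*Mrpl46* and *Mrps11* are a pair of neighbours, 1 from each subunit, that start back to back on chromosome 7. The 41 bases between their RefSeq starts, chr7:78783090-78783130 on GRCm38.p6, are given on the plus strand, the strand of *Mrps11*.
Mrpl46 and Mrps11: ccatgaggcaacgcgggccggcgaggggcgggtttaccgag

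*Mrpl46*, a mitochondria-specific large-subunit protein, was at 18.8, 21.4, 44.2 and 37.1 FPKM. *Mrps11* was at 14.0, 17.2, 36.1 and 35.9 FPKM. Both were more than 2-fold higher at E14 in CTL (2.35 and 2.57 times). In E14 cKO *Mrpl46* was at 0.840 of CTL, while *Mrps11* was level with it, a small difference whose error is unknown with 1 library per group.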

How the data were processed

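The authors isolated progenitor RNA, sequenced it on an Illumina HiSeq, checked reads with FastQC and ran the TopHat and Cufflinks tools to obtain the deposited FPKM values, 1 per entry and library. The submitters' processing notes name Bowtie 0.12.2 and the builds mm8 and mm9. Which build each step used, and the annotation, are not given in the sources used here. Groups were taken from the labels.

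Entries averaging 1 FPKM or more over the 4 libraries were kept. Ratios were taken with no pseudocount, so that entries listed at 0 in a library gave none. Folds of 2 (stage) and 1.5 (genotype) marked a difference. Named genes were *Stat3*, the extremes of level and of each ratio in each subunit, the 3 *Mrps18* paralogues, *Mrps30*, *Mrps36* and the extremes of each related list by E14 genotype ratio. *Mrpl11*, *Mrpl46*, *Mrpl30* and *Mrpl50*, *Dap3* and the overlapping, joined or motif-bearing entries were added after values were seen. The members and lists were chosen with earlier results of these data known. Promoter windows came from RefSeq on GRCm38.p6, matched by symbol. The script that takes ratios and counts was tested on simulated data. Alternatives were pseudocounts of 0.1 and 1, minimum means of 5 and 20 FPKM or none, 2 other scalings and other folds, the scalings being extended to the related lists and the stage difference after the data had been seen. Python 3.11.15, numpy 2.4.6, pandas 2.3.3 and matplotlib 3.10.9 were used.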

Additional observations from a re-analysis of the deposited data

Results flagged for a closer look

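The genotype ratio had opposite signs at E14 and E11, a difference between stages that was not tested because each group held 1 library. For *Mrpl* genes the median log2 ratio of cKO to CTL stood at -0.27 at E14 and at 0.098 at E11. *Mrps* genes had -0.27 and 0.14, and all analysed genes -0.079 and 0.059, which have the same signs. After upper-quartile scaling the E14 and E11 medians were -0.12 and 0.030 for *Mrpl* and -0.12 and 0.067 for *Mrps*. All analysed genes then had 0.074 and -0.010, signs opposite to those of the members. In 4 members the cKO level was lower by at least 20% at E14 and higher by at least 25% at E11, a limit chosen after the values were seen that 3.32% of all genes met. *Mrpl12* had log2 ratios of -1.09 at E14 and 0.48 at E11. *Mrps27* had -0.80 and 0.36, *Mrpl18* had -0.42 and 0.38, and *Mrpl36* had -0.37 and 0.33.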

How the results depend on the processing

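No alternative that was run turned the direction of an *Mrpl* or *Mrps* median. Upper-quartile scaling turned positive the E14 genotype medians of assembly factors, mitochondrial transcription, complex I and cytosolic ribosomal protein genes, as it did that of all analysed genes (0.074). It also turned the CTL stage median of cytosolic ribosomal protein genes to -0.0052. The E11 median of complex I genes became -0.0049 when centred on the all-gene median and -0.015 after upper-quartile scaling. Setting the median of all genes to 0 gave CTL stage medians of 0.70 (*Mrpl*) and 0.78 (*Mrps*), with 7 *Mrps* genes at 2-fold. Upper-quartile scaling gave 0.55 and 0.62 in CTL (4 *Mrpl* and 4 *Mrps* genes at 2-fold), 0.43 and 0.35 in cKO (1 *Mrps* gene at 2-fold), and -0.12 and -0.12 between genotypes at E14. Under the same scaling all analysed genes had -0.16, -0.091 and 0.074 in these comparisons. At E11 the centred medians were 0.040 and 0.078. At a fold of 1.5, 37 *Mrpl* genes in CTL and 23 *Mrpl* and 11 *Mrps* genes in cKO were higher at E14 (30.3% of all genes in CTL, 21.6% in cKO). At a fold of 3 there were 2 *Mrpl* and 1 *Mrps* genes in CTL, and 0 and 0 in cKO (4.99% and 4.71% of all genes). Lower in cKO at E14 were 19 *Mrpl* and 12 *Mrps* genes by at least 20% (21.8% of all genes), and 3 and 2 by 1.5-fold (7.67%). Higher in cKO at E11 were 4 and 2 by at least 25% (11.0%), and 0 and 0 by 1.5-fold (2.18%). The other 101 values stayed within 0.1 (log2 medians) or 1.5 times (counts) of those reported. The cause of these shifts was not tested, beyond the fold or scale each alternative sets. No paired analysis was possible because each group holds 1 library. Fragment numbers are unknown, so no counting error can be given.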
